A study of Homo sapiens with 12 samples.

Results

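The genes described here are 10 members of the actin and serum response factor (SRF) contractile program, SRF, ACTB, ACTG1, ACTA2, TAGLN, MYL9, TPM1, TPM2, TPM4 and CNN1. They were taken by name from the 35238 genes of an expression table, and all 10 were found. The table holds poly(A) RNA sequencing of HK-2 cells, an immortalised human proximal tubule line, in 4 groups of 3 libraries. Cells received 10 nM of a scrambled short interfering RNA (SCR) or of one against POLR2A (siB), the gene of RPB1, the catalytic subunit of RNA polymerase II. Vehicle (DMSO) or aristolochic acid I (AAI) at 25 µM was given together with the siRNA for 24 hours; AAI is a nephrotoxin made by plants. The groups are thus SCR DMSO, SCR AAI, siB DMSO and siB AAI, and all share the transfection and the vehicle. Both questions concern the same cells: what AAI did to contractile genes with the scrambled or the POLR2A siRNA, and what the knockdown did with or without AAI.

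SRF is a transcription factor that binds a short A/T-rich element called the CArG box. One class of partners, the myocardin-related transcription factors (MRTF), is held in the cytoplasm by monomeric actin and enters the nucleus when actin polymerises, so that actin, its crosslinkers and its contractile regulators are both the signal and the output. A second class, the ternary complex factors, links SRF to growth factor signalling and early genes such as FOS. In kidney tubule cells the cytoplasmic actins and tropomyosins build the cortical cytoskeleton and stress fibres, whereas ACTA2 and TAGLN are usually read as smooth muscle or myofibroblast genes.

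Libraries held 15844015 to 42805294 reads, so that 3 reads correspond to 0.0701 to 0.189 counts per 1000000 reads (CPM). POLR2A levels in CPM were 258, 288 and 306 (SCR DMSO), 673, 719 and 729 (SCR AAI), 138, 143 and 139 (siB DMSO) and 266, 220 and 210 (siB AAI), and POLR2A was lower in every siB library than in every SCR library of the same treatment. AAI raised POLR2A itself on the log2(CPM + 1) scale in limma, by 1.32 in SCR cells (adjusted p = 0.00321) and 0.72 in siB cells (adjusted p = 6.0e-04). The levels of siB AAI thus overlapped those of SCR DMSO. The 6 epithelial markers were all expressed. With AAI, 4 of them were lower in siB cells and none passed in SCR cells, beside 21.8% and 3.36% of all genes lower. Mean levels in siB DMSO and siB AAI were 272 and 87.2 CPM for KRT19, 171 and 163 CPM for EPCAM, and 110 and 106 CPM for CDH2. Of 10 proximal tubule markers, 3 to 5 had a group mean of at least 1 CPM; PAX8 and GGT1 were abundant, whereas LRP2 lay between 0.0902 and 1.20 CPM and AQP1 between 0 and 0.554 CPM. SCR DMSO replicate 2, the deepest library, stood apart for several of the genes described, at 1.82 times the mean of the other 2 libraries of its group for ACTB, 1.91 times for ACTG1, 1.77 times for MYL9 and 2.40 times for ACTA2. Its departure was not confined to these genes. CDH1 was at 2.87 CPM there against 25.2 and 11.8 CPM in the other 2 libraries, and KRT19 at 604 against 204 and 256 CPM. One RNA, AC010970.2, took between 0.189% and 10.6% of a library's reads. In bulk RNA, fewer cells expressing a gene and less RNA per cell cannot be told apart, and CPM says nothing of the RNA content of a cell.

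The CArG box was searched in the RefSeq promoter windows of build GRCh38.p14, each 300 bases long, from 250 before to 50 after a transcription start, on both strands. Of 35116 windows, 454 (1.29%) held the box and 6624 (18.9%) held it with up to 1 mismatch. Windows were found for 7 of the 10 genes, 12 in all, and 3 of these genes (SRF, ACTG1 and TPM4) held a complete box. Counted by window, 3 of the 12 held a complete box and 6 held it with up to 1 mismatch. No box up to 1 mismatch was found in the windows of TPM1, TPM2 and CNN1. The TPM1 window, at chr15:63048239-63048538, lies inside the gene, which starts at 63042620. The sequence before that gene start was not searched. A match describes letters and not occupancy. The stretches below are shown because SRF, an actin and a tropomyosin each held the element that names the program, and ACTA2 because both of its boxes had a mismatch. ACTA1 and ACTC1 are shown because these muscle actins had the widest changes with AAI among the related genes. For ACTA1 this held in SCR and siB cells, and for ACTC1 in siB cells only. ACTG2, another muscle actin that is not shown, held 2 complete boxes. Its mean levels were 0.483, 0.479, 0.441 and 1.02 CPM in SCR DMSO, SCR AAI, siB DMSO and siB AAI. Capitals mark the boxes.

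SRF promoter: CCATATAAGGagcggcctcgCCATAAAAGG
ACTG1 promoter: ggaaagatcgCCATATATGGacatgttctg
TPM4 promoter: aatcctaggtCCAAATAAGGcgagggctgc
ACTA2 promoter, first box, 1 mismatch: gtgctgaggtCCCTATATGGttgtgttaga
ACTA2 promoter, second box, 1 mismatch: tgtctttgctCCTTGTTTGGgaagcaagtg
ACTA1 promoter: tgcccaacacCCAAATATGGctcgagaagg
ACTC1 promoter: gcgaaggggaCCAAATAAGGcaaggtggca

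The SRF stretch lies at chr6:43171239-43171268 on the plus strand and begins 30 bases before the start, with a pair of complete boxes. The ACTG1 stretch lies at chr17:81512874-81512903 on the minus strand with its box beginning 94 bases before the start, and that of TPM4 at chr19:16067355-16067384 on the plus strand with its box 173 bases before the start. Those of ACTA2 lie at chr10:88952875-88952904 and chr10:88952825-88952854 on the minus strand, 121 and 71 bases before the start of the second of its windows. The ACTA1 stretch lies at chr1:229434172-229434201 and the ACTC1 stretch at chr15:34795639-34795668, both on the minus strand, with boxes 97 and 109 bases before the start.

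Per length of the canonical transcript, the order of levels was ACTB, ACTG1, TPM1, TPM4 and MYL9 in each of the 4 groups. These lengths come from the annotation, and the transcripts used by HK-2 cells were not measured, so levels and ratios per kb depend on them. In SCR DMSO, ACTB stood at 3302 ± 1242 CPM per kb (SD, n = 3), ACTG1 at 2382 ± 956, TPM1 at 736 ± 106, TPM4 at 203 ± 47.9 and MYL9 at 109 ± 38.9 CPM per kb. The ranges of ACTB and ACTG1 in SCR DMSO overlapped, but both were measured in the same libraries. Within each SCR DMSO library ACTB was the higher, at 1.325 to 1.51 times ACTG1 per kb. TAGLN and SRF followed at 24.9 ± 9.05 and 19.3 ± 5.06 CPM per kb, again with overlapping ranges, as had TPM4 and MYL9. CNN1 (5.36 ± 2.90), ACTA2 (1.19 ± 0.659) and TPM2 (0.275 ± 0.0406 CPM per kb) came last. ACTB and ACTG1 together took 0.793% to 1.53% of the reads of SCR DMSO libraries, 0.549% to 0.578% in SCR AAI, 0.673% to 0.770% in siB DMSO and 0.479% to 0.581% in siB AAI.

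**Figure D1:**
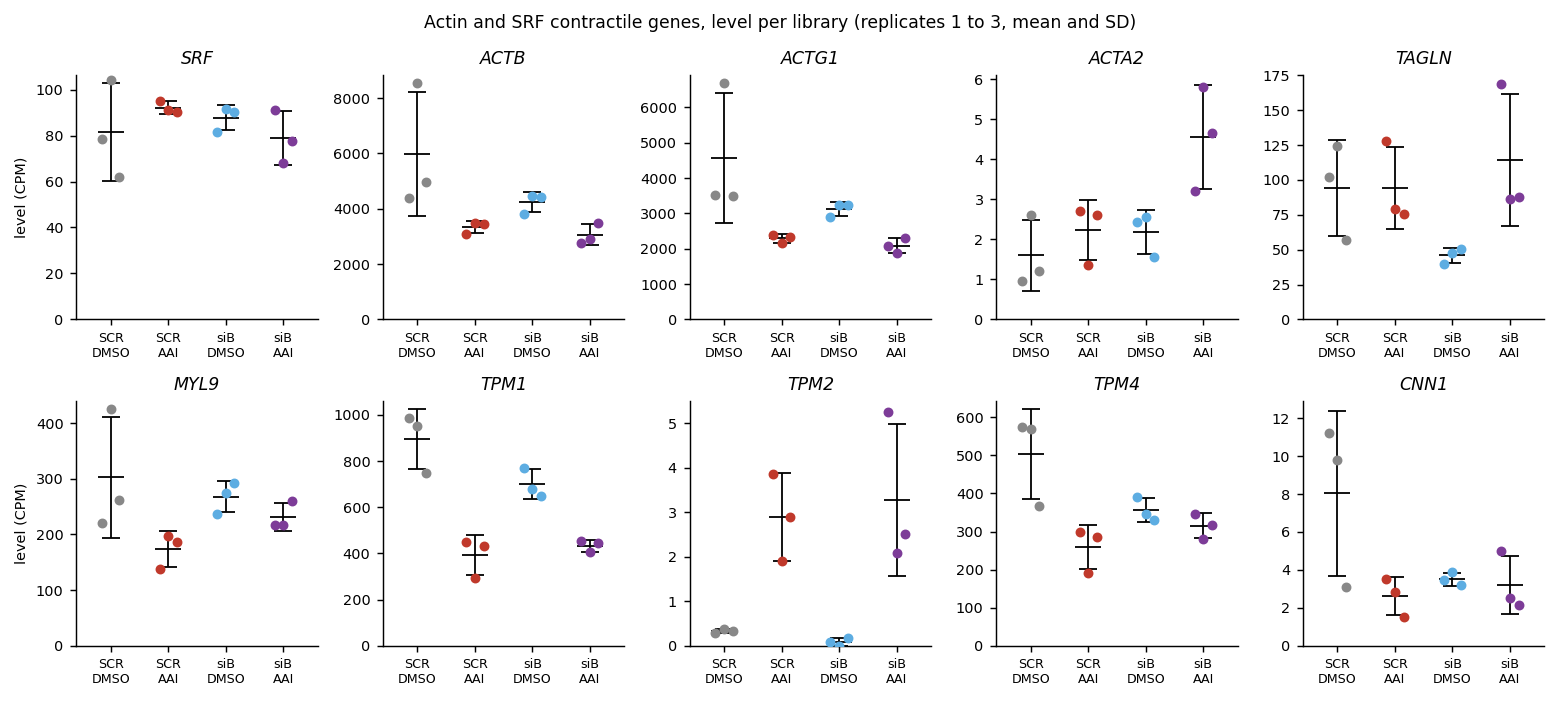
Level of each of the 10 genes in CPM (vertical axis, linear from 0) in the 12 libraries, by group; points are replicates 1 to 3 from left to right, and bars give mean and SD. TPM2 is at or below 0.374 CPM in all 6 DMSO libraries and at or above 1.90 CPM in all 6 AAI libraries, whereas all 6 AAI libraries lie below all 6 DMSO libraries for ACTB, ACTG1 and TPM1.

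In SCR cells, AAI lowered the tropomyosin TPM1 and raised the tropomyosin TPM2, and no other of the 10 genes passed the test. "Passed" means a Benjamini-Hochberg adjusted p under 0.05 in limma over all genes tested. Of the 10 genes, 1 was higher and 1 was lower, against 8.98% of 14228 genes tested that were higher and 3.36% that were lower; both changes were also past 2-fold, as were 7.73% and 2.73% of all genes. In 5 genes (ACTB, ACTG1, MYL9, TPM1 and TPM4) the 3 AAI libraries lay below the 3 DMSO libraries without overlap, as in 11.5% of all genes, and in 1 gene (TPM2) above, as in 22.2%. At an unadjusted p under 0.05, 6 were lower, against 9.10% of all genes. The median change of the 10 genes was -0.77 on the log2(CPM + 1) scale, and that of all genes tested was 0.18.

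Same-numbered SCR DMSO and SCR AAI libraries deviated together, and with the replicate number as a block 4 genes were lower in SCR cells, MYL9 (adjusted p = 0.0348), TPM4 (0.0361) and CNN1 (0.0170) in addition to TPM1. Scaling by median-ratio size factors moved the median change of all genes by -0.20 and left 55.5% of the genes that passed on the higher side in place of 72.8%; it gave 2 of the 10 genes lower, TPM1 and TPM4, and TPM2 higher.

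In siB cells, AAI lowered both cytoplasmic actins and TPM1 and raised ACTA2, TAGLN and TPM2. Of the 10 genes, 3 were higher and 3 lower, against 30.4% of 14928 genes tested that were higher and 21.8% that were lower, so that the share that passed was near that of all genes in both directions. With a 2-fold limit added, 2 were higher (TAGLN and TPM2) and 0 lower, against 13.9% and 5.79%. The same 3 genes in each direction had groups without overlap, against 34.2% of all genes higher and 26.6% lower. The median change of the 10 genes was -0.17 and that of all genes 0.10; median-ratio scaling moved the latter by -0.12, left 48.8% of the genes that passed on the higher side in place of 58.2%, and added TPM4 to the genes that were lower.

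The knockdown itself passed the test for none of the 10 genes. Under AAI, 0 were higher and 0 lower in siB than in SCR cells, against 5.49% and 3.79% of 14946 genes. At an unadjusted p under 0.05, ACTA2 and MYL9 were higher (13.3% of all genes) and none was lower (12.2%); both also had groups without overlap (15.1% higher, 15.8% lower), and both passed with the replicate number as a block. In DMSO, limma passed 0 of 9 genes tested and 0% of all 13606 genes in either direction; no adjusted p was below 0.257. TAGLN was lower at an unadjusted p under 0.05, against 1.21% of all genes lower and 3.52% higher; TAGLN and ACTG1 had lower groups without overlap (3.64% of all genes lower, 8.28% higher). POLR2A, the target, likewise did not pass in DMSO, with a change of -1.01 (SE 0.13, adjusted p = 0.505); it passed with all 4 groups in one fit (adjusted p = 0.0271). The voom fit of limma on recovered reads gave 0 genes of the 10 in both comparisons as well.

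**Figure D2:**
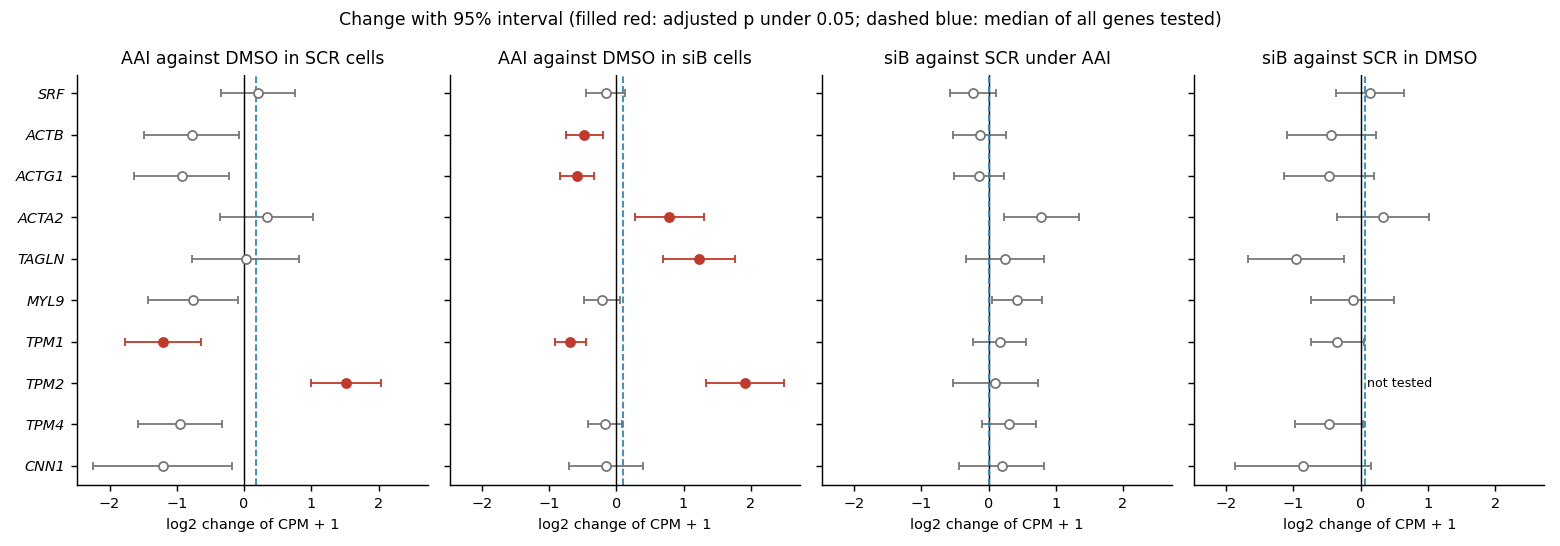
Change in log2(CPM + 1) of each of the 10 genes (horizontal axis, with 95% interval) in the 4 comparisons; filled red points have an adjusted p under 0.05 and the dashed blue line is the median change of all genes tested. TPM1 is at -1.21 and -0.69 and TPM2 at 1.52 and 1.91 in the SCR and siB panels of AAI against DMSO, and no point is filled in the siB against SCR panels.

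SRF encodes the factor that names the program and is itself an SRF target (chr6:43171269-43181506, plus strand; gene positions are those of GENCODE 44 on hg38). It was measured at 78.5, 104 and 61.9 CPM in SCR DMSO, 95.2, 90.9 and 90.1 in SCR AAI, 81.5, 91.6 and 90.1 in siB DMSO and 91.2, 68.0 and 77.5 CPM in siB AAI. The groups overlapped in all 4 comparisons. The change with AAI was 0.20 (95% interval -0.35 to 0.76, adjusted p = 0.620) in SCR cells and -0.16 (-0.45 to 0.13, adjusted p = 0.320) in siB cells. These intervals leave out a doubling or halving of SRF mRNA.

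ACTB (chr7:5526409-5563902, minus strand) encodes β-actin, the main cytoplasmic actin. Its levels were 4405, 8560 and 4985 CPM in SCR DMSO, 3104, 3470 and 3447 in SCR AAI, 3819, 4457 and 4436 in siB DMSO and 2774, 2906 and 3498 CPM in siB AAI. Each AAI library lay below each DMSO library, in both arms. In SCR cells the mean was 1.79-fold lower with AAI, a change of -0.78 (SE 0.30, adjusted p = 0.146) that did not pass; without SCR DMSO replicate 2 it was -0.49 (adjusted p = 0.195). In siB cells ACTB fell by 0.47 (SE 0.12, adjusted p = 0.0104).

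ACTG1 (chr17:81509413-81523847, minus strand) encodes γ-actin, which differs from β-actin in a few residues, so that reads in shared sequence may have been assigned to either gene. Its levels were 3521, 6690 and 3502 CPM in SCR DMSO, 2388, 2154 and 2328 in SCR AAI, 2909, 3242 and 3238 in siB DMSO and 2069, 1887 and 2307 CPM in siB AAI. As for ACTB, no AAI library reached the level of any DMSO library. The change was -0.93 (SE 0.31, adjusted p = 0.0934) in SCR cells, and -0.62 (adjusted p = 0.0875) without SCR DMSO replicate 2. In siB cells ACTG1 fell by 0.59 (SE 0.11, adjusted p = 0.00195). Fitted on all 12 libraries together, the siB changes of ACTB and ACTG1 had adjusted p = 0.127 and 0.0620, and the SCR changes 0.0230 and 0.0096. The ratio of ACTB to ACTG1 per kb lay between 1.33 and 1.51 in SCR DMSO, 1.38 and 1.71 in SCR AAI, 1.39 and 1.46 in siB DMSO and 1.42 and 1.63 in siB AAI.

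TPM1 (chr15:63042620-63071915, plus strand) encodes a tropomyosin, a coiled coil that lies along actin filaments and controls which proteins reach them. Its levels were 988, 950 and 748 CPM in SCR DMSO, 450, 293 and 433 in SCR AAI, 771, 679 and 647 in siB DMSO and 452, 404 and 444 CPM in siB AAI. The highest AAI library was below the lowest DMSO library in either arm. TPM1 fell by 1.21 (SE 0.24, adjusted p = 0.0168) in SCR cells, where the DMSO mean was 2.29 times the AAI mean. The SCR call did not hold without SCR AAI replicate 2 (-1.01, adjusted p = 0.0686) or replicate 3 (-1.29, adjusted p = 0.0591). In siB cells TPM1 fell by 0.69 (SE 0.10, adjusted p = 5.4e-04).

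TPM4 (chr19:16067021-16103002, plus strand) encodes a short tropomyosin of non-muscle cells. It was measured at 574, 570 and 367 CPM in SCR DMSO, 300, 192 and 285 in SCR AAI, 390, 347 and 329 in siB DMSO and 347, 282 and 318 CPM in siB AAI. The SCR groups did not overlap and the siB groups did. The change was -0.95 (SE 0.27, adjusted p = 0.0604) in SCR cells, and -0.85 (adjusted p = 0.0411) without SCR DMSO replicate 2, which passes. In siB cells it was -0.17 (SE 0.11, adjusted p = 0.222), and -0.30 (adjusted p = 0.0383) with median-ratio scaling, which passes. The ratio of TPM1 to TPM4 per kb was 3.39 to 4.15 in SCR DMSO, 3.05 to 3.10 in SCR AAI, 3.98 to 4.02 in siB DMSO and 2.65 to 2.92 in siB AAI, lower in every AAI library than in every DMSO library.

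TPM2 (chr9:35681992-35690056, minus strand) encodes β-tropomyosin, a form typical of skeletal and smooth muscle. It was read 6, 16 and 9 times in the SCR DMSO libraries (0.277, 0.374 and 0.331 CPM) and 2, 0 and 3 times in siB DMSO (0.0855, 0 and 0.167 CPM). With AAI it was at 3.86, 1.90 and 2.90 CPM in SCR cells and at 5.24, 2.08 and 2.52 CPM in siB cells. All 6 AAI libraries were above all 6 DMSO libraries. On the log2(CPM + 1) scale, which understates the change of a gene at this level, TPM2 rose by 1.52 in SCR cells (SE 0.23, adjusted p = 0.00405) and, in siB cells, by 1.91 (SE 0.26, adjusted p = 2.9e-04). The ratio of summed reads per total reads was 8.37 (exact 95% interval 5.70 to 12.7, counting error only) in SCR cells, from 186 reads against 31, and 39.6 (16.6 to 123) in siB cells, from 175 reads against 5. TLN1, the next gene upstream on the same strand, 6892 bases away, had means of 428, 378, 380 and 340 CPM in SCR DMSO, SCR AAI, siB DMSO and siB AAI and did not pass with AAI in either arm. The siB against SCR change in DMSO was not tested, since TPM2 stayed under the limit on low values there.

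TAGLN (chr11:117199370-117207464, plus strand) encodes transgelin, an actin-binding protein abundant in smooth muscle. Its levels were 102, 124 and 57.0 CPM in SCR DMSO, 128, 79.0 and 75.2 in SCR AAI, 39.5, 47.8 and 50.3 in siB DMSO and 169, 86.3 and 88.0 CPM in siB AAI. The siB DMSO libraries were the 3 lowest of the 12, and replicate 1 was the highest library of both AAI groups. TAGLN rose by 1.23 (SE 0.24, adjusted p = 0.00207) with AAI in siB cells, and by 0.92 without siB AAI replicate 1. In SCR cells the change was 0.03 (95% interval -0.77 to 0.82, adjusted p = 0.971), and its sign turned with median-ratio scaling. In DMSO the siB against SCR change was -0.96 (SE 0.30, adjusted p = 0.9998), and the difference between the arms in the AAI effect was 1.21 (SE 0.46, adjusted p = 0.267), so the AAI effect on TAGLN was not shown to differ between siB and SCR cells. Exons of TAGLN overlap those of PCSK7 on the other strand over 2233 bases; use of strand in counting is not given in the sources used here, so reads of the pair cannot be told apart there. PCSK7 had means of 63.6, 59.7, 67.2 and 75.1 CPM in SCR DMSO, SCR AAI, siB DMSO and siB AAI, and SIDT2, which ends 1925 bases upstream on the same strand, 24.0, 63.3, 25.4 and 49.0 CPM; their part in the TAGLN values was not tested.

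MYL9 (chr20:36541497-36551447, plus strand) encodes a regulatory myosin light chain whose phosphorylation drives contraction. Its levels were 221, 425 and 261 CPM in SCR DMSO, 138, 198 and 186 in SCR AAI, 237, 275 and 292 in siB DMSO and 216, 217 and 260 CPM in siB AAI. The 3 SCR AAI libraries were the lowest of the 12. The change with AAI was -0.76 (SE 0.29, adjusted p = 0.140) in SCR cells, -0.48 without SCR DMSO replicate 2, and -0.21 (SE 0.12, adjusted p = 0.161) in siB cells, where it passed without siB DMSO replicate 1 (-0.30, adjusted p = 0.0471). Under AAI, MYL9 was 0.42 higher in siB than in SCR cells (SE 0.17, adjusted p = 0.147; 0.0159 with the replicate block).

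CNN1 (chr19:11538767-11550323, plus strand) encodes calponin 1, which binds actin in smooth muscle. It was measured at 11.2, 9.79 and 3.09 CPM in SCR DMSO, 3.53, 2.81 and 1.53 in SCR AAI, 3.46, 3.88 and 3.18 in siB DMSO and 4.99, 2.49 and 2.14 CPM in siB AAI. SCR DMSO replicates 1 and 2 stood above the other 10 libraries, and replicate 3 lay within their range. The change was -1.21 (SE 0.45, adjusted p = 0.129) in SCR cells, and -1.71 (adjusted p = 0.0315) without SCR DMSO replicate 3, which passes. In siB cells it was -0.16 (SE 0.25, adjusted p = 0.616).

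ACTA2 (chr10:88935074-88991339, minus strand) encodes smooth muscle α-actin, the usual myofibroblast marker. Its levels were 0.970, 2.62 and 1.21 CPM in SCR DMSO, 2.71, 1.36 and 2.62 in SCR AAI, 2.44, 2.57 and 1.56 in siB DMSO and 3.22, 5.82 and 4.66 CPM in siB AAI. The 3 siB AAI libraries were the highest of the 12, and the other groups overlapped. ACTA2 rose by 0.79 (SE 0.23, adjusted p = 0.0153) with AAI in siB cells, with a ratio of summed reads of 2.10 (exact 95% interval 1.71 to 2.60) from 264 reads against 142. The call did not hold without siB DMSO replicate 3 (adjusted p = 0.0697), siB AAI replicate 2 (0.0578) or siB AAI replicate 3 (0.0516). In SCR cells the change was 0.34 (SE 0.30, adjusted p = 0.515). Under AAI the siB against SCR change was 0.79 (SE 0.26, adjusted p = 0.0740); same-numbered libraries of these groups deviated together, and with the replicate block the adjusted p was 0.0010. It was 0.0286 without SCR AAI replicate 1 and 0.0455 without siB AAI replicate 1. FAS, whose exons overlap those of ACTA2 on the other strand over 387 bases, had means of 6.64, 13.6, 12.4 and 18.0 CPM in SCR DMSO, SCR AAI, siB DMSO and siB AAI, and its part in the ACTA2 values was not tested.

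The AAI effects of the 10 genes were not shown to differ between siB and SCR cells. For the interaction of siRNA and AAI, limma passed 0 of the 10 (0 with voom too), against 1.46% of 15325 genes with a higher and 0.157% with a lower AAI effect in siB cells. At an unadjusted p under 0.05, TAGLN (1.21) and TPM4 (0.78, SE 0.30, adjusted p = 0.267) had higher AAI effects in siB cells (6.75% of all genes) and none a lower one (6.51%). Of the 10 differences 9 were above 0 and 1 was below, beside 56.2% of all genes below 0. The median of the 10 was 0.49 against -0.06 over all genes. The 2 arms have separate DMSO libraries, and SCR DMSO replicate 2, high for several of these genes, enters all of the differences. Without that library the same 9 stayed above 0, from 0.017 (ACTB) to 0.98 (TAGLN), and SRF was at -0.56.

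Among the genes of related function, the widest changes with AAI were those of muscle actins, ACTA1 in both arms and ACTC1 in siB cells only. ACTA1, skeletal muscle α-actin (chr1:229430365-229434104), was read 3, 1 and 1 times in SCR DMSO and 2, 7 and 3 times in siB DMSO. With AAI it was at 13.4, 7.30 and 8.50 CPM in SCR cells and 18.4, 13.8 and 14.5 CPM in siB cells. It rose by 3.29 (SE 0.25, adjusted p = 1.95e-04) and 3.79 (SE 0.18, adjusted p = 9.3e-07), with ratios of summed reads of 173 (exact 95% interval 73.7 to 534) and 81.1 (46.2 to 158). NUP133, the next gene upstream on the same strand, 6155 bases away, had means of 97.9, 113, 99.4 and 111 CPM in SCR DMSO, SCR AAI, siB DMSO and siB AAI.

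ACTC1, cardiac α-actin (chr15:34790107-34795589), was at 0.139, 0.888 and 0.588 CPM in SCR DMSO, 1.16, 1.04 and 1.10 in SCR AAI, 0.855, 0.496 and 0.558 in siB DMSO and 8.46, 5.35 and 6.48 CPM in siB AAI. The 3 siB AAI libraries stood apart from the other 9. It rose by 2.23 (SE 0.20, adjusted p = 2.6e-05) with AAI in siB cells and was 1.87 (SE 0.22, adjusted p = 9.2e-04) higher in siB than in SCR cells under AAI. In SCR cells the change was 0.48 (adjusted p = 0.203). The AAI effect was thus 1.75 larger in siB cells by the test of the interaction (SE 0.30, adjusted p = 0.0140). The interaction did not hold with a pseudocount of 0.1 (adjusted p = 0.203), with voom (0.325) or without siB DMSO replicate 2 (0.0536) or replicate 3 (0.0556). ACTG2, the enteric smooth muscle actin, lay between 0.323 and 0.588 CPM in 9 libraries and was at 1.33, 0.877 and 0.857 CPM in siB AAI, above all of them; it was too low to be tested. The muscle actins are close in coding sequence to each other and to the cytoplasmic actins, and how reads in shared sequence were counted is not given in the sources used here, so the values of ACTA1, ACTC1, ACTA2 and ACTG2, the interaction of ACTC1 included, may hold reads of another actin.

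Of 9 smooth muscle markers, which include CNN1, ACTA2 and TAGLN, 5, 5, 4 and 7 had a mean of at least 1 CPM in SCR DMSO, SCR AAI, siB DMSO and siB AAI, and their summed level was 68.5 to 141, 90.2 to 146, 51.6 to 61.3 and 110 to 201 CPM, most of it TAGLN. With AAI, 1 of 5 tested was higher and 0 lower in SCR cells, and 4 of 6 higher and 0 lower in siB cells, against 8.98% and 3.36%, and 30.4% and 21.8%, of all genes. MYOCD, the smooth muscle partner of SRF, had 2 reads in 1 library and 0 in the other 11, and DES lay between 0 and 0.446 CPM. LMOD1, a leiomodin that nucleates actin filaments, was at 1.20, 0.701 and 0.919 CPM in SCR DMSO and 4.86, 3.67 and 3.45 CPM in SCR AAI, and at 1.15, 0.676 and 1.06 CPM in siB DMSO and 5.87, 5.26 and 4.72 CPM in siB AAI. It rose by 1.36 (SE 0.22, adjusted p = 0.00542) in SCR and 1.68 (SE 0.18, adjusted p = 7.0e-05) in siB cells. MYH11, smooth muscle myosin heavy chain, rose by 1.35 (SE 0.23, adjusted p = 9.5e-04) in siB cells and had a change of 0.86 (SE 0.27, adjusted p = 0.0758) in SCR cells. SYNPO2, an actin-bundling protein, went the other way in SCR cells, where it was too low to be tested, from 2.36, 0.958 and 1.73 CPM in SCR DMSO to 0.442, 0.589 and 0.705 CPM in SCR AAI without overlap; in siB cells its change was 0.48 (adjusted p = 0.104). The summed level of 8 fibroblast markers was 66.2 to 86.8, 43.0 to 50.3, 65.4 to 70.5 and 48.3 to 55.8 CPM in the same order of groups, with 5 at a mean of at least 1 CPM in each and COL3A1 at 0.257 CPM or less in all 12 libraries. Their part in the values of TAGLN and ACTA2 was not tested.

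**Figure D3:**
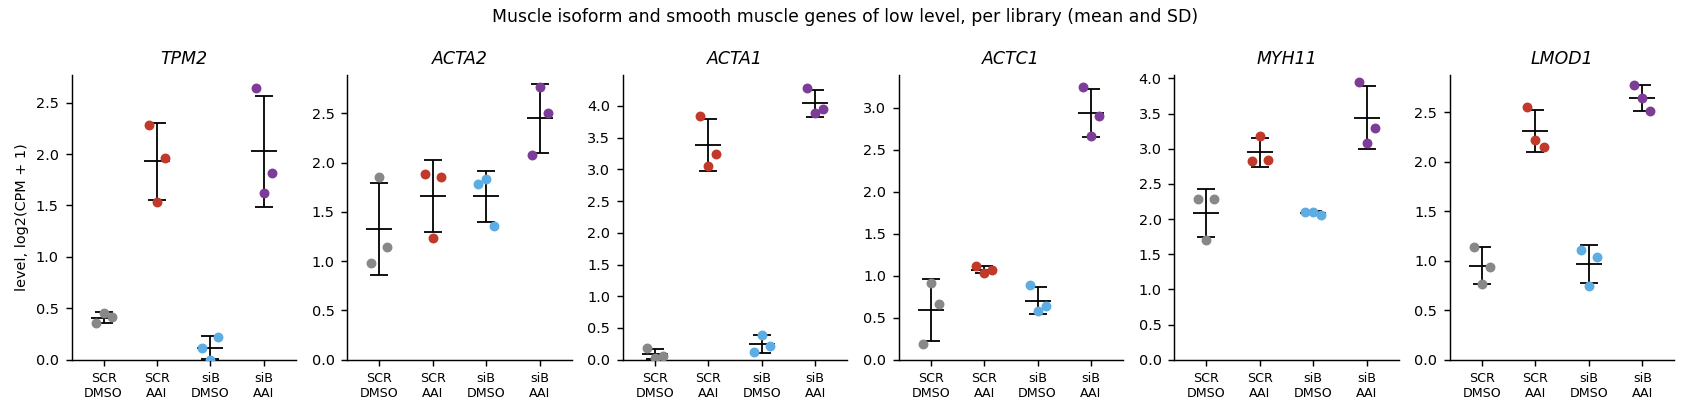
Level in log2(CPM + 1) (vertical axes, each from 0) of 6 muscle isoform and smooth muscle genes of low level in the 12 libraries by group; points are replicates 1 to 3, bars are mean and SD. For TPM2, ACTA1 and LMOD1 all 6 AAI libraries lie above all 6 DMSO libraries, and for ACTC1 the 3 siB AAI libraries, at 5.35 to 8.46 CPM, stand apart from the other 9.

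Other SRF and MRTF targets of adhesion and contraction that passed with AAI were lower in both arms. Of 23 tested, 4 passed as lower and 0 as higher in SCR cells, and 7 lower and 0 higher in siB cells, beside 3.36% lower and 8.98% higher of all genes in SCR cells and 21.8% lower and 30.4% higher in siB cells; their medians were -0.59 and -0.22, against 0.18 and 0.10 over all genes. In SCR cells the 4 were ACTN1, α-actinin that crosslinks filaments (-1.08, adjusted p = 0.0419), PDLIM7, an adapter of actin bundles (-1.04, adjusted p = 0.0293), VCL, vinculin of focal adhesions (-1.02, adjusted p = 0.0186), and TGFB1I1, a focal adhesion LIM protein (-0.90, adjusted p = 0.0474). None of the 4 passed with SCR DMSO replicate 3 or any 1 of the SCR AAI libraries left out (adjusted p 0.0518 to 0.189). TGFB1I1 also missed the threshold with median-ratio scaling (0.0516), voom (0.0539) and without AC010970.2 (0.0553), and TGFB1I1 and ACTN1 both with no filter (0.0613 and 0.0803) and with a mean CPM of at least 5 (0.0676 and 0.0618). VCL was at 872, 696 and 776 CPM in SCR DMSO and 429, 321 and 410 CPM in SCR AAI. In siB cells the widest were PDLIM7 (-1.30, adjusted p = 2.1e-05), TGFB1I1 (-1.06, adjusted p = 1.9e-04), MYLK, myosin light chain kinase (-0.82, adjusted p = 4.6e-04), and CNN2, a non-muscle calponin (-0.80, adjusted p = 2.8e-04). Under AAI, SMTN, which associates with smooth muscle filaments, was higher in siB than in SCR cells by 0.61 (adjusted p = 0.0449), a call that did not hold under median-ratio scaling (adjusted p = 0.0827) or without AC010970.2 (0.0590), among others.

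Among SRF cofactors, 7 of 9 were tested; none passed in SCR cells, and 2 rose and 3 fell with AAI in siB cells, where 30.4% of all genes were higher and 21.8% lower. MRTFA, listed under its older symbol MKL1, was at 78.7, 89.2 and 86.2 CPM in siB DMSO and 41.0, 50.03 and 50.6 CPM in siB AAI and fell by 0.83 (SE 0.12, adjusted p = 4.6e-04). In SCR cells its change was -0.71 (SE 0.29, adjusted p = 0.160). SCAI, a suppressor of MRTF activity, rose by 0.79 (adjusted p = 0.0248), ELK3, a ternary complex factor, rose by 0.79 (adjusted p = 0.00185), and FHL2, a LIM protein that binds SRF, fell by 0.54 (adjusted p = 0.0295), all in siB cells. The calls of SCAI and FHL2 did not hold with all 4 groups in one fit (adjusted p = 0.141 and 0.176) or without siB DMSO replicate 2 (0.0826 and 0.0613) or replicate 3 (0.0861 and 0.0954), and the FHL2 change was -0.31 without siB AAI replicate 1. Of 6 early genes on the ternary complex branch, none passed in SCR cells, where FOS had a change of 1.23 (adjusted p = 0.0550). In siB cells 1 rose and 1 fell, at or below the 30.4% and 21.8% of all genes, FOS by 1.55 (SE 0.18, adjusted p = 1.1e-04) from 3.46, 4.19 and 2.90 CPM to 13.4, 12.6 and 10.6 CPM, and MCL1 by -0.38 (adjusted p = 0.0392). The MCL1 call was lost with all 4 groups in one fit (adjusted p = 0.262), with no filter (0.0646) and without siB DMSO replicate 1 (-0.25) or 2 or siB AAI replicate 2 or 3 (0.0723 to 0.125).

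Of 19 actin turnover genes, 1 was lower and 0 higher in SCR cells (3.36% and 8.98% of all genes), and 7 were lower and 2 higher in siB cells (21.8% and 30.4%). Their medians were -0.26 and -0.04, against 0.18 and 0.10 over all genes. GSN, gelsolin, which severs and caps filaments, was at 193, 116 and 109 CPM in SCR DMSO and 73.2, 45.8 and 44.2 CPM in SCR AAI, and at 124, 126 and 123 CPM in siB DMSO and 66.4, 36.2 and 48.6 CPM in siB AAI. GSN fell by 1.33 in both arms (adjusted p = 0.0275 and 3.6e-04); the SCR call was lost without SCR DMSO replicate 1 or 3 or SCR AAI replicate 2 or 3 (adjusted p 0.0510 to 0.123). In siB cells SSH1, a cofilin phosphatase, rose by 0.97 (adjusted p = 7.1e-05), LIMK1, a cofilin kinase, fell by 0.69 (adjusted p = 7.4e-04) and TMSB4X, which sequesters monomeric actin, fell by 0.45 (adjusted p = 0.00952). The TMSB4X call did not hold with all 4 groups in one fit (adjusted p = 0.239).

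Across the 12 libraries the 10 genes did not follow one pattern. Of 45 pairs, 5 had a Pearson r of log2(CPM + 1) above 0.8 and 18 were below 0; the libraries share groups, depth and scaling, and r is given as a description. ACTB and ACTG1 had r = 0.98 (0.93 after group means were taken out), TPM1 and TPM4 0.92 (0.96), and ACTB and MYL9 0.81 (0.94). TPM1 and TPM2 had the lowest, -0.77. SRF followed TAGLN with r = 0.30 over the 12 libraries and 0.85 within groups, and TPM1 with -0.04 and 0.38. A mean of at least 5 CPM was reached by 11581 genes, from which any of the 10 genes and any date-like names were then left out. Of the rest, those most like SRF were MESDC1 (r = 0.95), C17orf96 (0.95) and TRIM8 (0.94). Those most like ACTB were AHCY, VIM and HNRNPUL1 (each 0.96), and those most like TAGLN were IL11 (0.93), TIMMDC1 (0.91) and THOC6 (0.89).

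**Figure D4:**
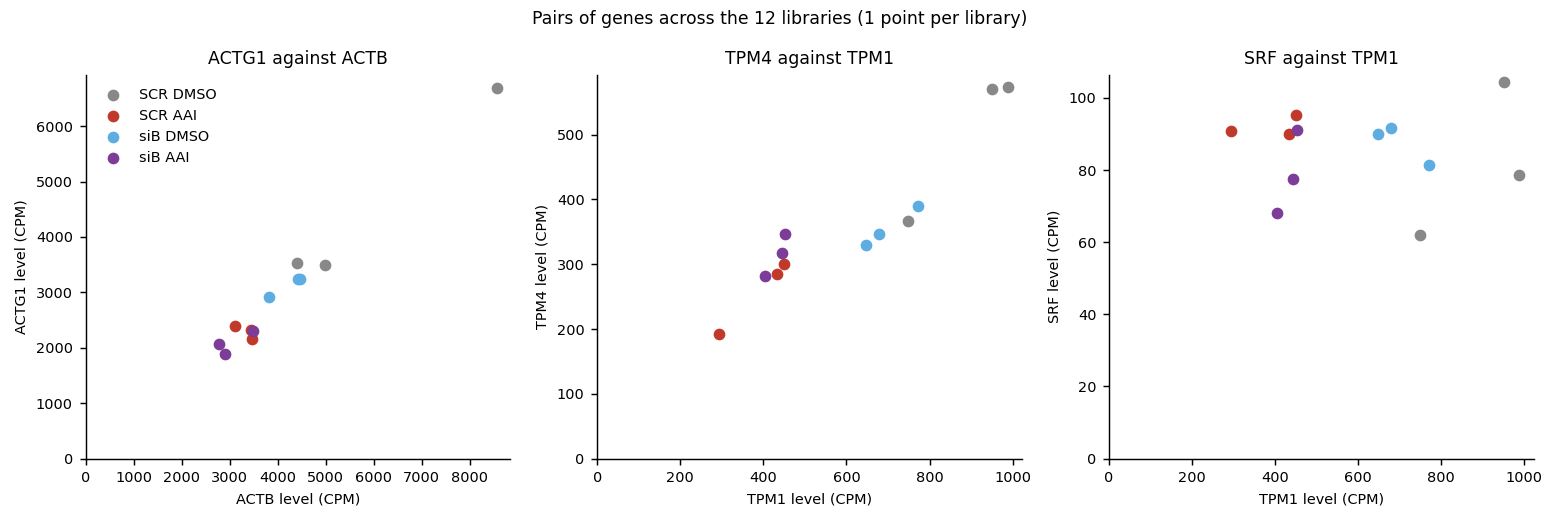
Levels in CPM (both axes from 0) of 3 pairs of genes, 1 point per library and colour by group: ACTG1 against ACTB, TPM4 against TPM1, and SRF against TPM1. The first pair and the second rise together (r = 0.98 and 0.92), with SCR DMSO replicate 2 at the far end of the first, and SRF shows no such line with TPM1 (r = -0.04).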

How the data were processed

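HK-2 RNA was sequenced in 12 libraries, grouped by their titles (the label field for treatment reads DMSO throughout). Nothing says that replicates were separate cultures, so p-values measure the spread between libraries, which may be technical. A chi-square of the reads of 2 libraries of a group, over its degrees of freedom, was 4.23 for siB DMSO replicates 2 and 3. It was 26.2 to 358 for the other pairs, highest for those with SCR DMSO replicate 2 (338 and 358). The spread of siB DMSO, with its 2 close libraries, enters the tests of AAI in siB cells. Per the study's methods, paired-end reads were aligned to hg38 and counted per gene with a UCSC annotation through BioJupies; the aligner and use of strand are not given in the sources used here. The authors deposited log10(CPM + 1) values for 35238 genes, of which 7627 were 0 in all libraries and 28 bore date-like names. CPM was recovered as 10 to the value minus 1, and reads from the step of 1 read; at least 99.9972% of values per library came out whole within 0.05 reads. Depth is that of these reads, and intervals and floors (3 reads) cover counting error only.

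On log2(CPM + 1), limma 3.58.1 (trend, R 4.3.3) was fitted to the 6 libraries of each pair of groups, over genes that reached 1 CPM in 3 or more of them, with Benjamini-Hochberg adjustment over all genes tested; the interaction used 12 libraries. The step was tested on simulated counts with the same dispersion for every gene and no outlying library. These settings differ from the data, so that test does not measure the power of the comparisons here. Replicate numbers come from the labels. Deviations from group means correlated between same-numbered libraries at 0.43, 0.49 and 0.35 for AAI against DMSO in SCR cells and at 0.64, 0.33 and 0.30 for siB against SCR under AAI (14465 genes), so the blocked fit is printed there where it changes a call. The 10 genes and the lists were chosen with earlier results of these data known. Genes named were the 10, POLR2A, up to 4 per pathway list with the largest change among those that passed in each comparison, and the 3 most like SRF, ACTB and TAGLN; cell type markers, ACTG2 and the neighbouring and overlapping genes were named after their values were seen. One further pathway list is not reported here. Alternatives were a pseudocount of 0.1, no filter, mean CPM of at least 5, median-ratio scaling, CPM without AC010970.2, voom on recovered reads, the replicate block, all 4 groups in 1 fit, a 2-fold limit and leaving out each library. Positions are from GENCODE 44 and promoter windows from RefSeq (GRCh38.p14).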

Additional observations from a re-analysis of the deposited data

Results flagged for a closer look

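Among the 10 genes and the genes named from the pathway lists, 1 differed between the arms by a test of the difference itself, as did 223 genes higher and 24 lower of all genes tested. ACTC1, cardiac α-actin, had an interaction of siRNA and AAI of 1.75 on the log2(CPM + 1) scale (SE 0.30, adjusted p = 0.0140 in limma over 15325 genes): its AAI effect was 2.23 in siB cells and 0.48 in SCR cells. The siB AAI libraries were read 134, 116 and 121 times and the SCR AAI libraries 21, 23 and 28 times. None of the 10 genes of the actin and SRF contractile program met the same criterion. With 3 libraries a group, no group was tested for a single library far from the others.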

How the results depend on the processing

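Over 49 comparisons of the 10 genes and 724 alternatives, 685 kept direction and side of the threshold, 8 lost and 18 gained the call, and 13 turned sign; the cause was not tested where no fewer genes or samples entered. In SCR cells the 1 gene lower with AAI became 2 with median-ratio size factors, 2 without AC010970.2, 4 with the replicate block and 6 with all 4 groups in one fit, and 0 to 2 with 1 library left out; the 1 gene higher became 0 with mean CPM of at least 5, which leaves out TPM2. In siB cells the 3 lower became 0 with the 2-fold limit, 1 with all 4 groups in one fit, and 4 with median-ratio size factors (TPM4) or without siB DMSO replicate 1 (MYL9), and the 3 higher became 1 with mean CPM of at least 5, which leaves out ACTA2 and TPM2. Under AAI the 0 genes higher in siB than in SCR cells became 2 with the replicate block and 0 to 1 with 1 library left out. With AAI in siB cells, ACTB lost its call with no filter (adjusted p = 0.0761). The TPM2 change, 1.52 and 1.91, was 2.76 and 4.19 with a pseudocount of 0.1 and 3.004 and 5.24 with voom.

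With median-ratio size factors the SCR changes of SRF (-0.012) and TAGLN (-0.19) turned sign. With 1 library left out, TAGLN in SCR cells ranged from -0.30 to 0.26, CNN1 in siB cells from -0.44 to 0.024, under AAI TPM1 from -0.028 to 0.28, TPM2 from -0.21 to 0.30, CNN1 from -0.088 to 0.38 and TAGLN from -0.068 to 0.49, and in DMSO MYL9 from -0.32 to 0.15 and SRF from -0.046 to 0.33. For AAI in siB cells and for the knockdown in DMSO, same-numbered libraries did not all deviate together (correlations 0.22, 0.03 and 0.21, and 0.74, 0.61 and -0.20), and the block changed no count of the 10 genes there. Depth limits TPM2, ACTA1 and ACTC1, whose DMSO libraries hold 38 reads or fewer each.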
